A study of Mus musculus with 12 samples.

Results

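The genes described here are the solute carrier genes of the nCounter mouse Metabolic Pathways panel. They were taken as every endogenous gene of the panel whose symbol begins with Slc, which gave 24 of the 748 endogenous genes, measured in T cells from subcutaneous KPC.Luc tumors. All mice were female C57BL/6 mice that carried KPC-Luc cells, a mouse pancreatic ductal adenocarcinoma line, under the skin, and treatment started 6 to 7 days after implantation and lasted 10 days. Each mouse received a peptide under the skin every day and an antibody into the peritoneum every 3 days. In the Scram+IgG group these were 10 µg of scrambled peptide and 200 µg of isotype IgG, in ANT008+IgG 10 µg of ANT008, a peptide antagonist of the receptors of vasoactive intestinal peptide, and 200 µg of IgG, in Scram+aPD-1 scrambled peptide and 200 µg of anti-PD-1, and in ANT008+aPD-1 both agents at these doses. Each group had 3 mice, and each mouse occupied 1 of 12 lanes. T cells were drawn from tumor suspensions on CD90.2 magnetic beads, and the labels put the purity of the T cells below complete.

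Solute carriers are membrane proteins that move sugars, amino acids, carboxylic acids, lipids and ions into and out of cells and organelles. Resting lymphocytes take up few nutrients, and activation through the T cell receptor and CD28 brings glucose and amino acid carriers to the cell surface, where they feed glycolysis, protein synthesis and mTORC1 signaling. In a tumor, T cells share glucose, glutamine and other substrates with cancer cells and myeloid cells and are exposed to exported lactate. By subfamily, the 24 genes fall into 5 hexose carriers (Slc2), 9 amino acid carriers or their partner chains (Slc1, Slc3, Slc6 and Slc7), 8 members of the monocarboxylate family (Slc16), the mitochondrial citrate carrier Slc25a1 and the fatty acid carrier Slc27a1.

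How many of these genes could be read differed between lanes. A gene counted as readable in a lane when it exceeded the mean of the lane's negative controls by 2 SD, here called background. That held for 18, 14 and 19 of the 24 Slc genes in Scram+IgG mice 1 to 3, for 16, 12 and 11 in the ANT008+IgG mice and for 18, 19 and 12 in the Scram+aPD-1 mice. The ANT008+aPD-1 mice had 3, 13 and 8, and the 3 genes of mouse 1 were Slc25a1, Slc3a2 and Slc2a1, with 13, 11 and 10 counts against a background of 9.94. Mice 1 and 3 of that group are the shallowest lanes, with 5776 and 24813 endogenous counts where the Slc genes of Scram+IgG mouse 1 alone summed to 12227. Slc25a1 and Slc3a2 were above background in all 12 lanes, 6 genes in 11 lanes, 2 in 10 and 9 in 3 to 9. Slc2a5 was above it in 1 lane, and 4 genes, among them Slc16a8, Slc6a18 and Slc7a9, in 0. Tests were run for the 19 Slc genes readable in 3 lanes or more, and the other 5 were left untested.

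The 24 genes together took a small share of the endogenous counts, a measure that needs no scaling of lanes. It was 0.881%, 1.11% and 0.968% in the Scram+IgG mice, 0.855%, 1.61% and 0.960% after ANT008+IgG and 0.913%, 0.905% and 0.986% after Scram+aPD-1. In the combination it was 1.68% in mouse 1 (95% Clopper-Pearson interval 1.36% to 2.04%), 1.02% in mouse 2 (0.987% to 1.06%) and 1.33% in mouse 3 (1.19% to 1.48%), and these intervals cover counting error only. The groups overlapped, and the share of ANT008+aPD-1 mouse 2 lay inside the range of the Scram+IgG mice. In mouse 1 the 24 genes summed to 97 counts, whereas 24 probes at the mean of that lane's negative controls would sum to 117. In mouse 3 they summed to 331 counts against 153, and in mouse 2 to 2752 against 204.

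To compare genes between mice, counts were divided by a lane size, the geometric mean of 3 housekeeping genes relative to the other lanes. A count at background then becomes a scaled count of 358 in ANT008+aPD-1 mouse 1, 13.8 in mouse 2 and 149 in mouse 3, against 3.42 to 46.3 in the lanes of the other groups. A scaled count that was not above background is therefore given below as such, and only the scaled background of its lane bounds it. Fold changes are log2 values with standard errors and come with adjusted p-values of edgeR's quasi-likelihood test over the 640 endogenous genes tested, which cover the spread between mice. In these sorted bulk samples fewer cells of a type and less RNA per cell cannot be told apart.

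The comparison of ANT008+aPD-1 with Scram+IgG asks how the carriers differ when both agents are given. Of the 19 tested Slc genes, 0 passed an adjusted p below 0.1 by edgeR, as did 0% of all genes tested. At an unadjusted p under 0.05 there were 4, Slc27a1, Slc2a1, Slc6a12 and Slc16a3, where 12.8% of all genes tested reached it. DESeq2 called 1 Slc gene (Slc6a12) among 30 of 640 genes, and limma on log2 values called 0 among 0 of 640. Limma's voom with sample weights called 9 among 156 of 640. These were Slc16a3, Slc16a6, Slc16a7, Slc16a11, Slc27a1, Slc2a1, Slc2a3, Slc2a8 and Slc6a12. Among them, Slc16a7 and Slc16a11 were above background in 0 ANT008+aPD-1 lanes. Of the 19 genes, Slc2a1 and Slc27a1 had groups that did not overlap with Scram+IgG, as did 13.6% of all genes tested. The 19 genes had a median log2 fold change of 1.01, with 15 above 0 (78.9%), beside a median of 0.12 and 56.7% over all genes. Without the 2 shallowest lanes, which are ANT008+aPD-1 mice 1 and 3, that group holds 1 mouse, so that no p-value of this alternative is read here. The median of the Slc genes was then -0.26 and 7 of 19 were above 0, beside -0.27 over all genes. After subtraction of the mean of the lane's negative controls, below called background subtraction, the 2 medians were 0.20 and -0.39. Without ANT008+aPD-1 mouse 1 or mouse 3 alone, the Slc median was 0.58 and 0.49.

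**Figure D1:**
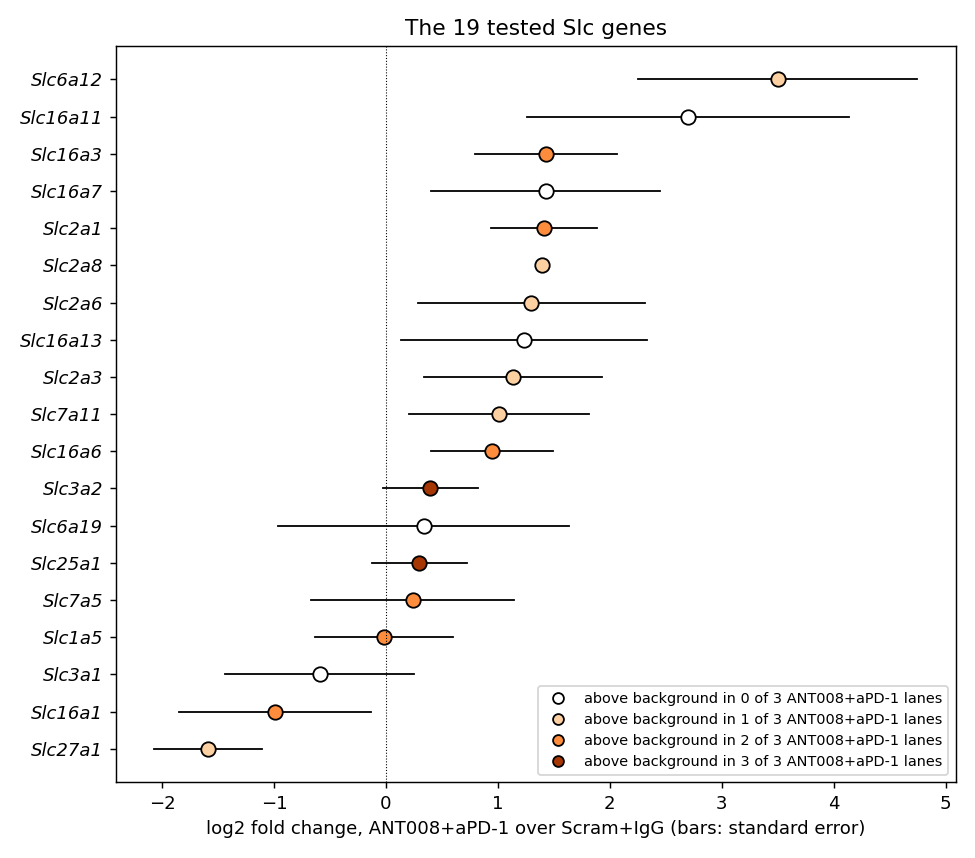
Log2 fold change of ANT008+aPD-1 over Scram+IgG on the x axis for each of the 19 tested Slc genes, with bars for the standard error and shading for how many of the 3 ANT008+aPD-1 lanes were above background. Slc27a1 has the lowest value (-1.59) and Slc6a12 the highest (3.50), no gene passed the adjusted threshold, and no bar is drawn for Slc2a8, whose p-value was not taken from its standard error alone.

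The hexose carriers were represented by Slc2a1, Slc2a3, Slc2a6 and Slc2a8 among the tested genes, and the 4 had fitted log2 fold changes from 1.13 to 1.41 with ANT008+aPD-1, of which 0 passed the adjusted test. For Slc2a3, Slc2a6 and Slc2a8 only mouse 2 of that group was above background, so that these values rest largely on unreadable lanes. Slc2a1 encodes GLUT1, the main glucose importer of activated T cells. It stood at 109, 50.5 and 56.3 scaled counts in the Scram+IgG mice, 140, 65.4 and 126 after ANT008+IgG, 101, 138 and 119 after Scram+aPD-1, and 360, 141 and 144 with ANT008+aPD-1. The 3 values of the combination lay above the 3 of Scram+IgG, but the first of them rests on 10 counts at a background of 9.94 and the third on 12 counts, which is not above background. Mouse 2, with 179 counts, gives the only ANT008+aPD-1 value well clear of its background. The log2 fold change was 1.41 (SE 0.48, adjusted p = 0.309). Without Scram+IgG mouse 1 it was 1.82 (adjusted p = 0.0482) and without ANT008+aPD-1 mouse 2, which leaves only the shallow lanes, 1.69 (adjusted p = 0.0985). It was 0.98 without ANT008+aPD-1 mouse 1, 0.97 without the 2 shallowest lanes and 0.85 after background subtraction. Over the alternatives that keep at least 2 mice in each group its adjusted p ran from 0.0287 to 0.768. As a share of endogenous counts, Slc2a1 was at 0.0483%, 0.0206% and 0.0242% in the Scram+IgG group, while the mice given both agents were at 0.173%, 0.0666% and 0.0484%, the last with an interval of 0.0250% to 0.0845%, which covers Scram+IgG mouse 1.

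Slc2a3 encodes GLUT3, a high-affinity glucose carrier of lymphocytes and neurons. It stood at scaled counts of 106, 13.3 and 14.2 in Scram+IgG mice, 55.8, 18.9 and 51.9 after ANT008+IgG, 66.0, 41.2 and 28.7 after Scram+aPD-1 and 72.1, 86.8 and 132 with ANT008+aPD-1. It was not above background in mouse 2 of Scram+IgG, mouse 2 of ANT008+IgG, mouse 3 of Scram+aPD-1 and mice 1 and 3 of ANT008+aPD-1. Scram+IgG mouse 1 was high for this gene, and the groups overlapped. The log2 fold change for the combination was 1.13 (SE 0.79, adjusted p = 0.558), and 2.83 (adjusted p = 0.0347) without Scram+IgG mouse 1. Without Scram+IgG mouse 2 or mouse 3 it was 0.72 and 0.71, and after background subtraction 0.68, and its adjusted p ran from 0.0213 to 0.917 over the same alternatives. The ratio of Slc2a1 to Slc2a3 counts within a lane was 1.03, 3.79 and 3.96 in Scram+IgG mice, 2.51, 3.45 and 2.42 after ANT008+IgG and 1.53, 3.35 and 4.14 after Scram+aPD-1, groups that overlapped. In each of these groups 1 of the 3 ratios is against a Slc2a3 count not above background, so that no test of the ratio is read here. Its mean log2 value differed from that of Scram+IgG by 0.15 and 0.15, and by -0.49 and -0.48 without Scram+IgG mouse 1. The first was -0.015 without ANT008+IgG mouse 2 and the second -0.14 without Scram+aPD-1 mouse 3. With each mouse left out in turn, the first ranged from -0.49 to 0.48 and the second from -0.48 to 0.58. For the combination the ratio was 5.00, 1.63 and 1.09, with both genes above background in mouse 2 only. Slc2a6 and Slc2a8, carriers held mainly on membranes inside the cell, were above background in 9 and 10 lanes and reached at most 140 and 221 raw counts. In ANT008+aPD-1 mouse 2 they stood at 15.8 and 24.5 scaled counts, inside the Scram+IgG ranges of 13.5 to 23.8 and 22.5 to 28.5. Slc2a8 spanned scaled counts of 32.7 to 39.9 after ANT008+IgG, above Scram+IgG in groups that did not overlap, as held for 3.44% of all genes tested, with a log2 fold change of 0.52 (adjusted p = 0.999), and 0% of all genes passed in that comparison. Without ANT008+aPD-1 mouse 2 it was called for the combination, with a log2 fold change of 2.11 (adjusted p = 0.0343) over 2 lanes that are not above background for it. Slc2a5, a fructose carrier, was untested. It had 26 raw counts or fewer in any lane and passed background only in Scram+aPD-1 mouse 2.

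In the monocarboxylate family, 6 of 8 genes were tested, 5 had log2 fold changes above 0 with ANT008+aPD-1 and 1, Slc16a1, below. Slc16a3 encodes MCT4, which exports lactate from strongly glycolytic cells. The scaled counts of this gene were 190, 23.8 and 71.3 in Scram+IgG mice, 187, 117 and 122 after ANT008+IgG, 317, 133 and 168 after Scram+aPD-1, and 144, 301 and 289 with ANT008+aPD-1. The Scram+IgG mice spread from 23.8 to 190, and all 3 other groups overlapped with mouse 1. The lowest value of the combination is 4 counts and not above background, while mice 2 and 3 had 382 and 24 counts and lay above the 3 Scram+IgG mice. The log2 fold change was 1.43 (SE 0.63, adjusted p = 0.375) for the combination, 0.57 (SE 0.60, adjusted p = 0.999) for ANT008 and 1.11 (SE 0.61, adjusted p = 0.988) for anti-PD-1. Without Scram+IgG mouse 1 the first became 2.42 (adjusted p = 0.0347), and over the alternatives with at least 2 mice a group it ran from 0.98 to 2.42, with adjusted p-values from 0.0299 to 0.790. That lane also carried a mark reading FLAG in the deposited table, as did the lane of ANT008+IgG mouse 1, and no reason is given. Without these 2 lanes, an alternative chosen after seeing the data, 5 Slc genes were called for the combination, Slc16a3 (2.42), Slc16a6 (1.53), Slc2a1 (1.82), Slc2a3 (2.83) and Slc27a1 (-1.89), among 83 of 640 genes. Without Scram+IgG mouse 1 alone, 4 were called among 84 of 640, the same genes apart from Slc16a6.

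Slc16a1 encodes MCT1, which carries lactate and pyruvate in either direction along their gradients. Its scaled counts were 109, 374 and 332 in Scram+IgG mice, 113, 783 and 150 after ANT008+IgG, 166, 113 and 566 after Scram+aPD-1, and 144, 109 and 168 with ANT008+aPD-1. The value of 144 is 4 counts and not above background. Scram+IgG mouse 1 lay as low as the combination, so the groups overlapped, and the log2 fold change was -0.99 (SE 0.86, adjusted p = 0.624). Slc16a1 and Slc16a3 can be set against each other within a lane, where scaling cancels, although each probe counts with an efficiency of its own and only differences of the ratio between mice carry information. The ratio of Slc16a1 to Slc16a3 counts was 0.571, 15.7 and 4.66 in the Scram+IgG group, against 0.603, 6.69 and 1.23 after ANT008+IgG. It was 0.522, 0.850 and 3.37 after Scram+aPD-1 and 1.00, 0.361 and 0.583 with ANT008+aPD-1. The ratio spread most within Scram+IgG, each treated group overlapped with it, and the 2 lanes marked FLAG had ratios of 0.571 and 0.603. The mean log2 ratio was 1.80 in Scram+IgG and 0.77, 0.19 and -0.75 in the other groups, in that order. The differences from Scram+IgG were -1.03, -1.60 and -2.54, with exact two-sided permutation p-values of 0.7, 0.4 and 0.3 (3 mice against 3, for which 0.1 is the smallest possible), and after adjustment over the 8 ratio tests each was 1. Without Scram+IgG mouse 2 these differences were 0.06, -0.51 and -1.45. The ratio of 1.00 in ANT008+aPD-1 mouse 1 is 4 over 4 counts, neither above background, and without that mouse the last difference was -2.92 (exact permutation p = 0.4).

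**Figure D2:**
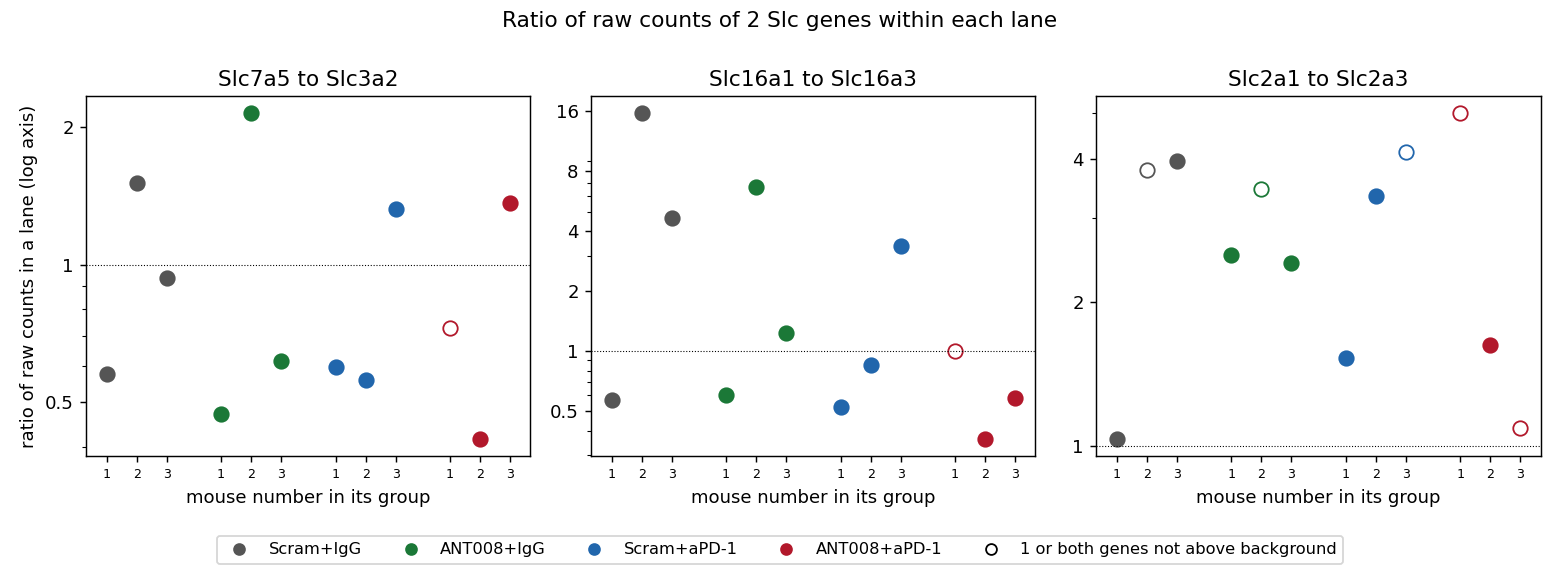
Ratio of the raw counts of 2 Slc genes in the same lane, on a log axis, for each mouse of the 4 groups, with open symbols where 1 or both genes were not above background. The ratio of Slc16a1 to Slc16a3 runs from 0.571 to 15.7 among the Scram+IgG mice and from 0.361 to 1.00 among the ANT008+aPD-1 mice, and the dotted line marks a ratio of 1.

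Of the other monocarboxylate family genes, Slc16a6 was above background in 11 lanes and Slc16a11 in 5. Slc16a6 was at scaled counts of 141, 52.4 and 59.9 in Scram+IgG mice, 128, 53.3 and 59.9 after ANT008+IgG, 122, 75.8 and 57.4 after Scram+aPD-1 and 252, 108 and 180 with ANT008+aPD-1, the first of the last 3 from 7 counts and not above background. In each of the other 3 groups mouse 1 was the highest, and the combination overlapped with Scram+IgG mouse 1. Its log2 fold change was 0.95 (SE 0.55, adjusted p = 0.466), and it was 0.27 after background subtraction and 0.35 without the 2 shallowest lanes. Slc16a11 had 49, 1 and 25 raw counts in the Scram+IgG mice, 43, 4 and 3 after ANT008+IgG, 28, 19 and 7 after Scram+aPD-1, and 5, 6 and 1 with ANT008+aPD-1, where it was above background in 0 lanes. Its fitted log2 fold change of 2.70 (SE 1.44, adjusted p = 0.458) thus sets unreadable lanes against Scram+IgG mice 1 and 3, where the gene was readable, and mouse 2, where it was not. It was 0.31 without ANT008+aPD-1 mouse 1 and -0.01 without the 2 shallowest lanes. Limma's voom called the gene on the same unreadable lanes, at 2.84 (adjusted p = 0.0470), among 156 of 640 genes. Slc16a7, which encodes the pyruvate and lactate carrier MCT2, and Slc16a13 were above background in 5 and 3 lanes, none of them from the combination. Slc16a8, untested, never exceeded 13 raw counts.

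**Figure D3:**
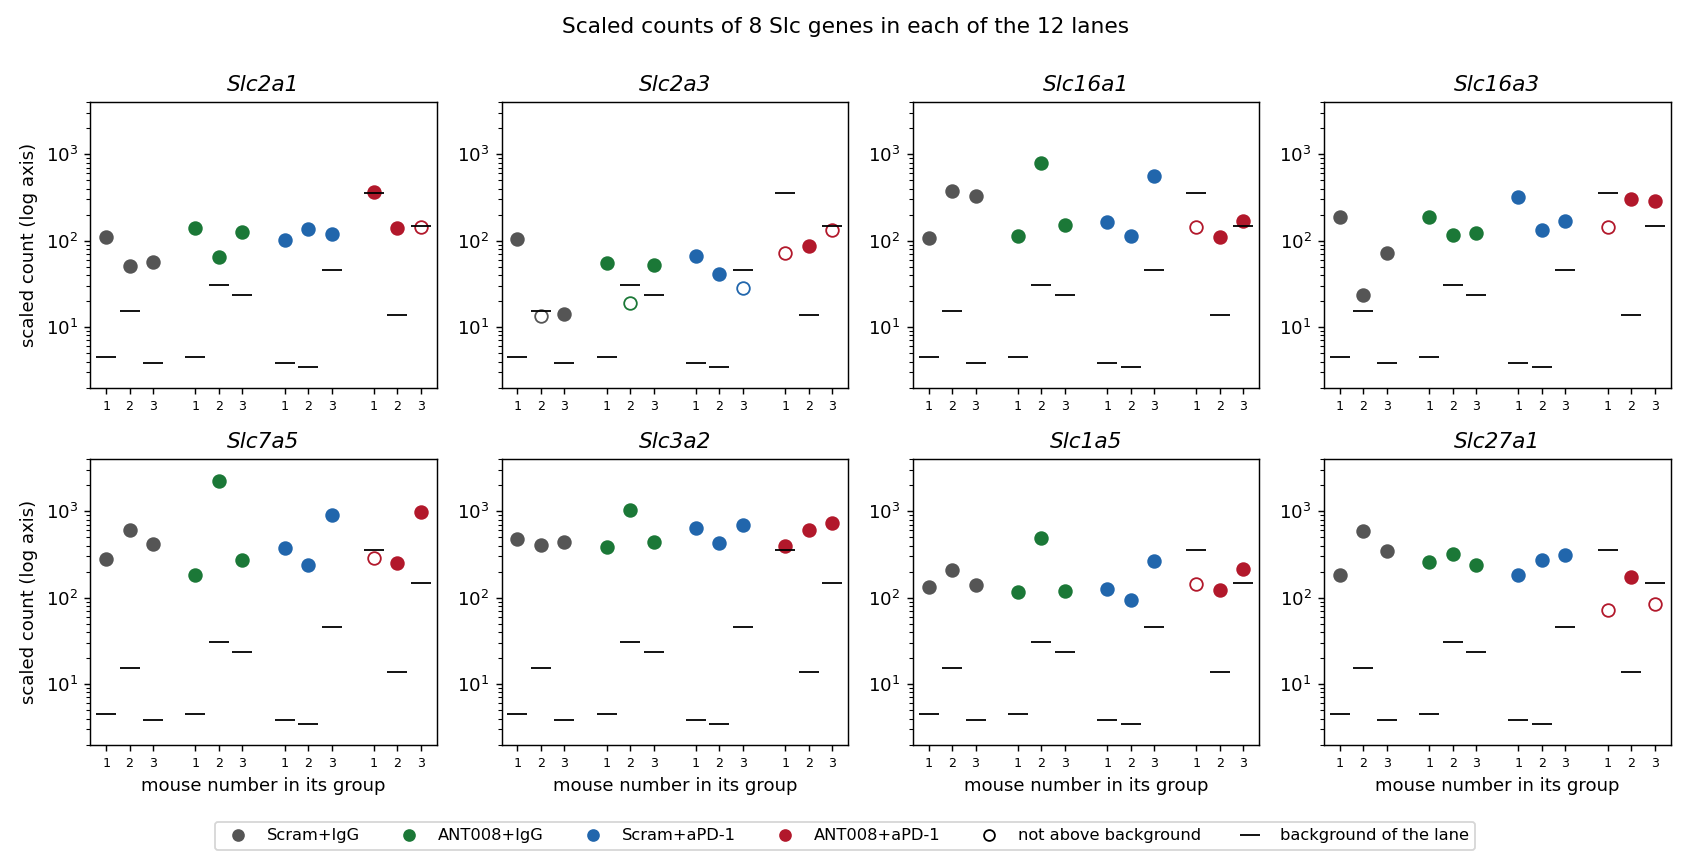
Scaled count on a log axis for 8 Slc genes in each of the 12 lanes, by group and mouse number, with a dash at the background of the lane and open symbols for values not above it. In ANT008+aPD-1 mice 1 and 3 the dashes stand at 358 and 149, within or above the range of most genes in the other lanes.

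Among the amino acid carriers the median log2 fold change was 0.34 with ANT008+aPD-1 over 7 tested genes, 5 of them above 0. That median is the value of Slc6a19, which was above background in 0 ANT008+aPD-1 lanes. Slc3a2 encodes the CD98 heavy chain, which brings several light chains to the plasma membrane, and Slc7a5 encodes LAT1, the light chain that carries leucine and other large neutral amino acids. Slc3a2 was readable in all lanes and stood at scaled counts of 480, 405 and 443 in Scram+IgG mice, with a mean of 443 ± 37.6 (SD, n = 3). It was at 388, 1043 and 443 after ANT008+IgG, 631, 424 and 689 after Scram+aPD-1, and 396, 604 and 722 with ANT008+aPD-1. Each treated group held at least 1 value above the highest Scram+IgG mouse and at least 1 within or below the Scram+IgG range, so that none was separate from it. For ANT008+aPD-1 the low value is that of mouse 1, from 11 counts at a background of 9.94, while mice 2 and 3 lay above all Scram+IgG mice. The log2 fold changes were 0.49 (SE 0.42, adjusted p = 0.999) for ANT008, 0.39 (SE 0.42, adjusted p = 0.988) for anti-PD-1 and 0.40 (SE 0.42, adjusted p = 0.711) for both. The last was 0.58 without ANT008+aPD-1 mouse 1 and 0.21 without ANT008+aPD-1 mouse 3. The ANT008 value rests on mouse 2, without which it was -0.09.

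Slc7a5 varied more between the mice of a group. It reached scaled counts of 277, 611 and 415 in Scram+IgG mice, 183, 2241 and 273 after ANT008+IgG, 378, 237 and 910 after Scram+aPD-1 and 288, 251 and 987 with ANT008+aPD-1, where the 288 of mouse 1 is 8 counts and not above background. In each treated group 1 mouse was far above the others, and the log2 fold changes were 1.05 (SE 0.89), 0.22 (SE 0.88) and 0.24 (SE 0.90) for ANT008, anti-PD-1 and both, with adjusted p-values of 0.999, 0.988 and 0.929. Without ANT008+aPD-1 mouse 3 the last was -0.71, without Scram+IgG mouse 1 it was -0.0020, and with TMM scaling it was -0.04. The ratio of Slc7a5 to Slc3a2 within a lane was 0.578, 1.51 and 0.936 in Scram+IgG mice, 0.471, 2.15 and 0.617 after ANT008+IgG, 0.598, 0.559 and 1.32 after Scram+aPD-1 and 0.727, 0.415 and 1.37 with ANT008+aPD-1. The ranges of the groups overlapped. The mean log2 ratio differed from Scram+IgG by -0.13, -0.30 and -0.33, with exact permutation p-values of 0.9, 0.6 and 0.7. Without Scram+IgG mouse 2 these differences were 0.22, 0.05 and 0.02. The first was 0.30 without ANT008+IgG mouse 1 and 0.11 without ANT008+IgG mouse 3, and the last was 0.093 without ANT008+aPD-1 mouse 2 and -0.31 without mouse 1, where Slc7a5 was not above background.

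Slc1a5 encodes ASCT2, a carrier of glutamine and other neutral amino acids. Its scaled counts were 134, 210 and 140 in Scram+IgG mice, 116, 485 and 120 after ANT008+IgG, 127, 94.9 and 266 after Scram+aPD-1 and 144, 123 and 217 with ANT008+aPD-1, the 144 again from 4 counts and not above background. The group means were 161 ± 42.5, 240 ± 212, 163 ± 91.2 and 161 ± 49.0 (SD, n = 3 each), and the log2 fold change for the combination was -0.02 (SE 0.61, adjusted p = 0.989). It was 0.21 without Scram+IgG mouse 2, 0.019 without ANT008+aPD-1 mouse 1 and 0.22 without ANT008+aPD-1 mouse 2. The same mice, ANT008+IgG mouse 2 and Scram+aPD-1 mouse 3, were the highest of their groups for Slc1a5, Slc7a5, Slc3a2 and Slc16a1. Slc7a11 encodes the cystine and glutamate exchanger xCT, another partner of the CD98 heavy chain. It was at scaled counts of 26.8, 44.8 and 39.6 in Scram+IgG mice, 19.1, 120 and 18 after ANT008+IgG, 44.0, 25.5 and 73.8 after Scram+aPD-1 and 108, 40.2 and 108 with ANT008+aPD-1. ANT008+IgG mouse 3 and ANT008+aPD-1 mice 1 and 3 were not above background, and the log2 fold change of 1.01 (SE 0.80, adjusted p = 0.604) for the combination was 0.13 without the last 2.

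Slc6a12, a carrier of betaine and GABA, had the highest fitted value of the 19 genes and few counts in any lane. Its raw counts were 30, 8 and 25 in Scram+IgG mice, 15, 6 and 7 after ANT008+IgG, 20, 9 and 6 after Scram+aPD-1 and 1, 8 and 13 with ANT008+aPD-1. It was above background in 3 lanes, Scram+IgG mice 1 and 3 and ANT008+aPD-1 mouse 3, and in the last by 13 counts against 12.4. The log2 fold change was 3.50 (SE 1.25, adjusted p = 0.323). It was 0.75 (adjusted p = 0.885) without ANT008+aPD-1 mouse 3, the lane with 13 counts, 0.29 without the 2 shallowest lanes, 3.21 by DESeq2 (adjusted p = 0.0472) and 4.42 without ANT008+aPD-1 mouse 2 (adjusted p = 0.0399, with 68 of 640 genes called), and its adjusted p ran from 0.0399 to 0.885 over the alternatives with at least 2 mice a group. Slc3a1, Slc7a9, Slc6a18 and Slc6a19 encode amino acid carriers, or a partner chain, known from kidney and gut. Slc7a9 and Slc6a18 were untested, with at most 15 and 19 raw counts, and Slc3a1 and Slc6a19 reached 82 and 62 counts and were above background in 6 and 5 lanes, none of them from ANT008+aPD-1.

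Slc27a1 encodes FATP1, which takes part in the uptake of long-chain fatty acids and their activation to acyl-CoA. It had the smallest unadjusted p of the Slc genes for the combination and the lowest log2 fold change, -1.59 (SE 0.48, adjusted p = 0.309). Its scaled counts were 184, 588 and 344 in Scram+IgG mice, 257, 318 and 238 after ANT008+IgG, 181, 271 and 307 after Scram+aPD-1, and 72.1, 173 and 84.2 with ANT008+aPD-1. All 3 combination values lay below all 9 others, yet those of mice 1 and 3 are 2 and 7 raw counts and not above background. In mouse 1 a scaled count of up to 358 would have been unreadable, which covers 2 of the 3 Scram+IgG values, and in mouse 3 one of up to 149, which covers 0. Mouse 2, with 219 counts, was below the lowest Scram+IgG mouse by 173 to 184. As a share of the endogenous counts the groups overlapped, with 0.0813%, 0.240% and 0.148% in the Scram+IgG group, and 0.0346%, 0.0815% and 0.0282% in mice given both agents. The interval of the last, from 7 counts not above background, was 0.0113% to 0.0581%, and that of the lowest Scram+IgG mouse 0.0766% to 0.0862%. Both cover counting error only and not the spread between mice, so no difference is read from them. The log2 fold change was -2.21 (adjusted p = 0.0593) without ANT008+aPD-1 mouse 2, -1.90 (adjusted p = 0.0347) without Scram+IgG mouse 1 and -1.1 without the 2 shallowest lanes. Over the alternatives with at least 2 mice a group the adjusted p ran from 0.0302 to 0.768. Scaled by positive controls instead, the fold change was -0.56 relative to the median of all genes.

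Slc25a1, the mitochondrial citrate carrier that supplies cytosolic citrate for fatty acid synthesis, was readable in every lane. Its scaled counts were 135, 201 and 239 in Scram+IgG mice, 149, 150 and 178 after ANT008+IgG, 169, 178 and 217 after Scram+aPD-1 and 469, 146 and 181 with ANT008+aPD-1. The single high value came from 13 counts in mouse 1, and the remaining combination values lay within the Scram+IgG range. The log2 fold change was 0.30 (SE 0.42, adjusted p = 0.799), and -0.25 without that mouse.

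Each agent alone was compared with the same Scram+IgG mice that served the combination, so the 3 comparisons share their controls. For ANT008+IgG, 0 of 19 Slc genes passed the adjusted test by edgeR (0% of all genes) and 0 had an unadjusted p under 0.05 (0.469% of all genes), while DESeq2 and limma on log2 values called 0 and voom called 2 among 44 of 640 genes, Slc2a1 (1.14) and Slc2a3 (1.70), the latter at -0.07 (SE 0.73, adjusted p = 0.999) by edgeR. The median of the Slc genes was 0.49 beside 0.11 over all genes, with 13 of 19 above 0 (68.4% beside 66.7%), and with positive control scaling it was -0.15 relative to all genes. Without ANT008+IgG mouse 2 it was 0.06. The Slc genes with the smallest p were Slc2a1, at a log2 fold change of 0.62 (SE 0.43, adjusted p = 0.999), and Slc3a2. For Scram+aPD-1 the numbers were again 0 of 19 by edgeR (0% of all genes) and 0 at an unadjusted p under 0.05 (1.09% of all genes), 0 by DESeq2 and limma, and 4 by voom among 143 of 640 genes, Slc16a3 (1.95), Slc27a1 (-0.90), Slc2a1 (0.97) and Slc2a3 (1.81), the last at 0.06 (SE 0.73, adjusted p = 0.988) by edgeR. The median was 0.22 beside 0.15 over all genes, with 13 of 19 above 0 (68.4% beside 62.7%), and it was -0.02 with TMM and -0.11 with the total endogenous count. Without Scram+aPD-1 mouse 3 it was -0.083, and without mouse 2 it was 0.56. Slc16a3 (1.11, above) and Slc2a1, at 0.72 (SE 0.43, adjusted p = 0.988), had the smallest p. Across the 3 comparisons, side by side for ANT008, anti-PD-1 and both, Slc2a1 gave 0.62, 0.72 and 1.41, Slc16a3 0.57, 1.11 and 1.43, and Slc27a1 -0.45, -0.56 and -1.59. For Slc2a1, the ANT008 value was 1.05 without Scram+IgG mouse 1 and 0.40 without ANT008+IgG mouse 1. Its anti-PD-1 value was 1.16 without Scram+IgG mouse 1 and 0.53 without Scram+IgG mouse 2. For Slc16a3, the anti-PD-1 value was 2.09 without Scram+IgG mouse 1 and 0.67 without mouse 2 of that group, and leaving out Scram+aPD-1 mouse 1 gave 0.64.

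Comparing the combination with each single agent asks what the second agent added. Relative to ANT008+IgG, 0 of 19 Slc genes passed by edgeR (0% of all genes) and 2 had an unadjusted p under 0.05 (7.81% of all genes), Slc27a1 at -1.14 (SE 0.48, adjusted p = 0.578) and Slc6a12 at 2.94 (SE 1.29, adjusted p = 0.578). Relative to Scram+aPD-1, 0 passed (0% of all genes) and 1 had an unadjusted p under 0.05 (6.25% of all genes), Slc6a12 at 3.17 (SE 1.34, adjusted p = 0.751). Without ANT008+aPD-1 mouse 2, Slc6a12 was called in that comparison, at 4.24 (adjusted p = 0.0685), among 35 of 640 genes. The interaction of the agents, which asks whether the effect of both differs from the sum of each, gave 0 Slc genes by edgeR (0% of all genes) and 0 at an unadjusted p under 0.05 (1.41% of all genes). In these 3 comparisons DESeq2, limma on log2 values and voom each called 0 Slc genes. Against ANT008+IgG DESeq2 and voom called 5 of 640 genes each, against Scram+aPD-1 DESeq2 called 5, and the other calls of these tools were 0 of 640. The interaction was 0.07 (SE 0.64) for Slc2a1, -0.26 (SE 0.87) for Slc16a3 and -0.58 (SE 0.65) for Slc27a1, each with an adjusted p of 0.993.

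Genes that use what the carriers bring in were counted from lists of glycolysis, amino acid use, amino acid sensing, other transport proteins and regulators. Of them 0 passed the adjusted test against Scram+IgG in any treated group, as did 0% of all genes tested. ANT008+aPD-1 mice 1 and 3 had 156 and 357 of 748 endogenous genes above background, and the fold changes below share that limit. Of 13 glycolytic genes downstream of glucose uptake, 4 had log2 fold changes above 0 with ANT008+aPD-1, with a median of -0.33, where 56.7% of all genes tested were above 0. Gpi1, which converts glucose 6-phosphate to fructose 6-phosphate, was the only one with an unadjusted p under 0.05 (2.17, adjusted p = 0.309), which 12.8% of all genes tested reached. Of 12 genes of glutamine and amino acid use 9 were above 0, with a median of 0.43, and Il4i1, a secreted enzyme that oxidizes aromatic amino acids, had the smallest p (2.65, adjusted p = 0.360). Of 6 genes of amino acid sensing and mTORC1 2 were above 0 (median -0.30). Of 5 transport proteins outside the Slc names, 4 were above 0 (median 0.38), and Mpc1, a subunit of the mitochondrial pyruvate carrier, had the smallest p (0.87, adjusted p = 0.337). Of 6 regulators of transporter genes 3 were above 0 (median -0.27), and Myc, which drives nutrient carrier genes in activated T cells, was at -1.16 (adjusted p = 0.362). An unadjusted p under 0.05 with ANT008+aPD-1 was reached by 1 gene of amino acid use and 0 of amino acid sensing. Of the transport proteins 2 reached it, with values above 0, and of the regulators 2, with values below 0. With ANT008 alone the numbers above 0 were 10 of 13, 9 of 12, 4 of 6, 4 of 5 and 5 of 6, and with anti-PD-1 alone 13 of 13, 9 of 12, 3 of 6, 4 of 5 and 3 of 6.

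The label of the samples was checked against markers of T cells and of other cells. The panel holds 10 of 13 T cell markers, led by Cd3d, and all 10 were above background in 11 lanes, with 6 above it in ANT008+aPD-1 mouse 1. Their summed scaled counts were 5071, 897 and 878 in Scram+IgG mice, 3371, 1781 and 1689 after ANT008+IgG, 3382, 1809 and 2721 after Scram+aPD-1 and 4433, 3755 and 5427 with ANT008+aPD-1. Myeloid markers were also read in every lane. Of 21, 8 were on the panel, and 4 to 8 of them were above background in each lane. None of these 8 was below background in every lane. Their summed scaled counts in the 3 ANT008+aPD-1 mice lay above those in the 3 Scram+IgG mice, whereas the T cell sums of these groups overlapped. In ANT008+aPD-1 mouse 1 only 4 of the 8 were above background. Against Scram+IgG, 8 of 8 myeloid and 9 of 10 T cell markers had log2 fold changes above 0 with ANT008+aPD-1, with medians of 1.34 and 0.85, and 0 of either list passed the adjusted test. For NK cell markers these were 3 of 3 and 0.72, and for myeloid markers after anti-PD-1 alone 7 of 8 and 0.86. NK cell markers (3 of 4 on the panel, led by Klrd1) summed to scaled counts from 161 to 1655 over the 12 lanes, and fibroblast markers (2 of 9, led by Thbs2) to 28.6 to 157 in the lanes where at least 1 of them was above background, which leaves out ANT008+aPD-1 mice 1 and 3. Of 5 B cell markers 2 were on the panel, and 0 to 2 of them were above background in each lane. For tumor epithelium (6 markers) and endothelium (5 markers) the panel holds 0. Myeloid cells also express glucose, lactate and amino acid carriers, and the part of cell mixture in the Slc values was not tested.

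Each gene is read by 1 probe pair on a target of 100 bases of a single transcript. The targets of the 24 Slc genes had a median GC content of 51%, from 42% to 64%, against 48% over all endogenous genes. Between any 2 of these targets the longest identical stretch was 11 bases. No target was compared with the whole transcript of a relative. The targets of the lactate carriers are shown since their ratio varied most between mice. Slc16a1 is read at bases 475 to 574 of its transcript and Slc16a3 at bases 1105 to 1204, 5′ to 3′ below, and capitals mark the longest stretch they share, 8 bases.
Slc16a1: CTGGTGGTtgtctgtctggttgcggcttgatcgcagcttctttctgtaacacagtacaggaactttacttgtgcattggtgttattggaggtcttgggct
Slc16a3: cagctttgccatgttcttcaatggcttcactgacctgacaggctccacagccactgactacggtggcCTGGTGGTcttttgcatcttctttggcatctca
The targets of Slc7a5 (bases 780 to 879) and Slc27a1 (bases 1580 to 1679) are given as those of a carrier whose ANT008+IgG mice ran from 183 to 2241 scaled counts and of the carrier with the lowest fitted fold change for the combination, with no part in capitals.
Slc7a5: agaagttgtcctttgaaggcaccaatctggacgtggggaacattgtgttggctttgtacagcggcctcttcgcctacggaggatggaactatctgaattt
Slc27a1: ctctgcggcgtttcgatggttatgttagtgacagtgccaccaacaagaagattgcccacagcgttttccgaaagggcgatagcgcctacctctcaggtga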

How the data were processed

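The authors deposited raw nCounter counts for each probe and lane, without background subtraction or scaling, together with the panel definition, from which probe targets were read. Normalization and the test for single genes are not given in the sources used here. Column names were matched to the sample titles, where PD and A+P stand for anti-PD-1 and for ANT008 with anti-PD-1. Lane size was the geometric mean of Dnajc14, Oaz1 and Ubb, the housekeeping genes (3 of 20) above background in all 12 lanes. Endogenous genes readable over background in 3 lanes or more (640 of 748) were fitted in 1 model of the 4 groups with edgeR 4.0.16 (R 4.3.3) and called at a Benjamini-Hochberg adjusted p below 0.1. Standard errors were derived from the test statistic. Ratios were tested by exact permutation (Python 3.11.15 with SciPy 1.17.1; 3 mice against 3). The fit was run on simulated counts at the real lane sizes and at equal depth. A recovery limit was set only at equal depth, which the shallow lanes do not share.

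Values in every lane are given for the 6 with the smallest p for the combination, the 2 with the smallest for each agent, and carriers known from lymphocyte activation. Slc members and the lists were chosen with earlier results of these data known. Alternatives in scaling were TMM, the total endogenous count, all housekeeping genes and positive control probes. Further ones were DESeq2 1.42.0 with its own lane sizes, limma 3.58.1 on log2(scaled count + 1) and voom with sample weights. Background subtraction took off the mean of the lane's negative controls, without the 2 SD, and set values under 1 to 1. Other filters of genes, only the groups compared and the mouse number as a block were also used. So were the 2 shallowest lanes left out, each mouse left out and, added after seeing the data, the 2 lanes marked FLAG left out. The RefSeq annotation of GRCm38.p6 served to check symbols and holds all 24.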

Additional observations from a re-analysis of the deposited data

How the results depend on the processing

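Depth limits these results: 2 of 3 ANT008+aPD-1 lanes read 3 and 8 of 24 Slc genes. Of 569 values of 35 results under alternatives, 497 were unchanged by the rule for their kind, with no turn of sign. For counts of calls the rule is again 0 calls, and for medians a shift below the spread between mice. For gene fold changes it is the same direction and side of the threshold, and for ratios the same direction. The total includes the alternative that leaves 1 mouse in ANT008+aPD-1. In a further 7, medians of the Slc genes, the sign turned by less than the spread between mice: for ANT008 -0.15 with positive controls and -0.076 with voom, for anti-PD-1 -0.021 with TMM, -0.11 with the total count, -0.00045 with positive controls, -0.03 with voom and -0.083 without Scram+aPD-1 mouse 3. With edgeR, no Slc gene was called under any scaling or gene filter, and the filter for all 12 lanes kept only 2 Slc genes. DESeq2 set lane sizes of its own, so that a call by it differs in scaling as well as in tool. Calls appeared with voom (2 for ANT008, 4 for anti-PD-1 and 9 for both, among 44, 143 and 156 of 640 genes), with DESeq2 (1 for both, among 30) and without the 2 lanes marked FLAG (5 for both, among 83, chosen after seeing the data). Without each mouse there were 0 to 4 for both agents against Scram+IgG and 0 to 1 against Scram+aPD-1. The count of 4 came without Scram+IgG mouse 1 (among 84 of 640 genes) and without ANT008+aPD-1 mouse 2 (among 68 of 640). The count of 1 came without ANT008+aPD-1 mouse 2 (among 35 of 640). The median Slc fold change for both agents moved to 0.20 after background subtraction and -0.26 without the 2 shallowest lanes. With positive control scaling the median of all genes was -4.37 for both agents, and gene values are relative to it, while calls are not. For both agents the sign turned for Slc16a11 without the shallowest lanes (-0.0091), for Slc1a5 with positive controls (0.021) and voom (0.16), for Slc7a5 with TMM (-0.044), positive controls (-0.15), DESeq2 (-0.016), without the shallowest lanes (-0.79) and without the lanes marked FLAG (-0.0020), and for Slc25a1 with positive controls (-0.11), background subtraction (-0.20), voom (-0.11) and without the shallowest lanes (-0.39). Slc3a2 with ANT008 turned with positive controls (-0.18). With each mouse left out, Slc1a5 ranged from -0.31 to 0.22, Slc7a5 from -0.71 to 0.60, Slc25a1 from -0.25 to 0.67 and Slc3a2 with ANT008 from -0.093 to 0.75. Log2 ratios of Slc7a5 to Slc3a2 then ranged from -0.79 to 0.30 (ANT008), -0.69 to 0.051 (anti-PD-1) and -0.77 to 0.093 (both), of Slc2a1 to Slc2a3 from -0.49 to 0.48 and -0.48 to 0.58 (ANT008, anti-PD-1), and of Slc16a1 to Slc16a3 from -2.33 to 0.064 (ANT008), -2.90 to -0.51 (anti-PD-1) and -3.85 to -1.45 (both). The cause of these shifts was not tested. Mouse numbers do not pair the animals throughout: 7 of 18 same-number pairs correlated above 0.1 (median r -0.05), but the lanes of mouse 1 in the 3 groups other than ANT008+aPD-1 correlated at 0.78, 0.76 and 0.68 with each other. With the replicate block 0 Slc genes were called and the median for both agents was 0.95.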
